A study of Mus musculus with 16 samples.

Results

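The nuclear-encoded genes of the mitochondrial respiratory chain were followed through 16 immortalised mouse embryonic fibroblast (MEF) lines. Protein-coding nuclear genes were taken as members when their symbol starts with Nduf (complex I), Uqcr (complex III), Cox4 to Cox8 (complex IV) or Atp5 (complex V) or is one of Sdha to Sdhd (complex II), and when their mean over the 16 lines was above 0. Of 94 genes that fit by symbol and type, 90 had such a mean, out of 54453 genes in the table and 15285 protein-coding genes with a mean above 0. They are 38 subunits and 8 assembly factors of complex I, 4 genes of complex II, 8 of complex III, 15 of complex IV and 17 of complex V. The rule used no difference between lines.

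The lines were made from 2 sibling C57BL/6J embryos of embryonic day 13.5, and all were immortalised by serial passaging through crisis. Each embryo gave a parental line, MEF-1 or MEF-2, male and female respectively by the study. From each parental line, 7 cells were sorted singly and grown into clonal lines, and each of the 16 lines has 1 library of total RNA depleted of ribosomal RNA. No line received a treatment. The clonal lines of a set are the replicates below, so p-values measure the spread between clones of 1 parental line, and the embryo, its sex, the course of immortalisation and the karyotype cannot be told apart as sources of a difference between the sets.

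Values are regularised log (rlog) values on the log2 scale, in which each line is pulled towards the mean of its gene. Differences therefore tend to be smaller than those of plain log2 counts, most of all for weakly expressed genes. The table holds no counts, and the depth of the libraries is unknown. Several lines stood apart in whole chromosomes, measured as the median deviation of the genes of a chromosome from their mean over the 14 clonal lines. MEF-1 clonal line 5 had chromosome 15 at 0.21 and chromosome 18 at −0.44, MEF-2 clonal line 3 had chromosomes 2 and 14 at −0.25 and −0.22, MEF-1 clonal lines 1, 2 and 7 each had 1 further chromosome at −0.24, −0.22 and 0.25, and the sets differed on chromosomes 12, 18 and 19 as given below. Of 9 fibroblast markers, 8 had means above 10, led by Col1a1 at 20.88, while Thy1 was at 4.74. Among 24 markers of epithelium, endothelium, blood cells, muscle and nerve cells, Tubb3 at 11.26 was the only one with a mean above 10. The summed level of the nerve cell list, which Tubb3 dominates, was 9.49 to 10.77 in MEF-1 and 11.66 to 12.97 in MEF-2 clonal lines, and its part in the differences below was not tested.

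The respiratory chain passes electrons from NADH through complex I, or from succinate through complex II, to ubiquinone, then through complex III and cytochrome c to complex IV, which reduces oxygen. Complexes I, III and IV pump protons across the inner mitochondrial membrane, and complex V, the ATP synthase, uses the gradient to make ATP. Complexes I, III, IV and V combine subunits from the nucleus with core subunits encoded in mitochondrial DNA, whereas complex II is wholly nuclear. Several small subunits of complex IV exist as isoforms from separate genes, a common form and forms of muscle, testis or lung, and nuclear respiratory factors and the coactivator Ppargc1a are known regulators of the nuclear genes.

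Most members were expressed at a high level in every line, and 87 of 90 lay above the 40th percentile of all protein-coding genes. The members just above the threshold were Cox4i2 with a mean of 1.74, Ndufa4l2 with 2.38, Cox7a1 with 2.70 and Cox6a2 with 4.48. The 4 genes left out were at exactly 0 in all lines, namely Cox7b2, Cox8b, Cox8c and a second gene identifier named Atp5o (ENSMUSG00000116933). Cox7b2 and Cox8c are known as testis forms and Cox8b as a form of heart and skeletal muscle. Since longer transcripts give more reads, levels are compared between genes only after the log2 of the merged exon length in kb is taken away. The merged length joins all annotated exons of a gene, so it can exceed the length of the transcripts present and lower the level per kb. On that scale the members had a median of 11.03 against 8.37 for all genes tested, and the highest were Atp5a1 at 13.58 and Atp5b at 13.49, the alpha and the catalytic beta subunit of ATP synthase. Cox4i1 at 13.29, Cox6b1 at 13.24, Cox6a1 at 13.01 and Cox8a at 12.99 followed in the mean over all lines, and their order differed between the sets. In MEF-1, Cox8a was at 13.33 per kb, beside 13.34 for Atp5a1, 13.34 for Atp5b and 13.30 for Cox4i1, so that these 4 lay closer together than their SDs. In MEF-2, Cox8a was at 12.61, below Cox7a2l at 12.76 and Ndufa2 at 12.65, and Cox6b1 at 13.36 was above Cox4i1 at 13.30 and Cox6a1 at 12.89. The median level per kb was 10.89 for subunits of complex I, 8.39 for its assembly factors, 11.44 for complex II, 11.44 for complex III, 11.80 for complex IV and 11.27 for complex V, and 15.61 for the 13 subunits encoded in mitochondrial DNA.

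The MEF-2 and MEF-1 clonal lines were compared to see which respiratory chain genes differ between fibroblasts of sibling embryos. Of the 90 members, 20 were higher and 16 were lower in MEF-2 (limma, 7 against 7 lines, Benjamini-Hochberg adjusted p under 0.05 over all 15285 genes), where 56.1% of all genes tested were called, 27.5% higher and 28.6% lower. Of the 87 members above the 40th percentile, 35 were called beside 58.7% of all genes above it. In both directions together, the values of the 2 sets did not overlap for 11 members, 6 higher and 5 lower in MEF-2, where 25.9% of all genes had no overlap. The members' median difference, MEF-2 minus MEF-1, was 0.02, their median absolute difference 0.14 beside 0.30 over all genes, and 1 member (Cox6b2) differed by at least 1 where 13.2% of all genes did. Of the 36 calls, 26 held in every one of 14 fits that left out 1 clonal line each. With the median of its chromosome in each line taken away from every gene, 20 members were higher and 23 lower, and the share called over all genes was 56.8%. After quantile normalization 17 were higher and 20 lower, so that the balance of directions depends on the scaling.

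**Figure D1:**
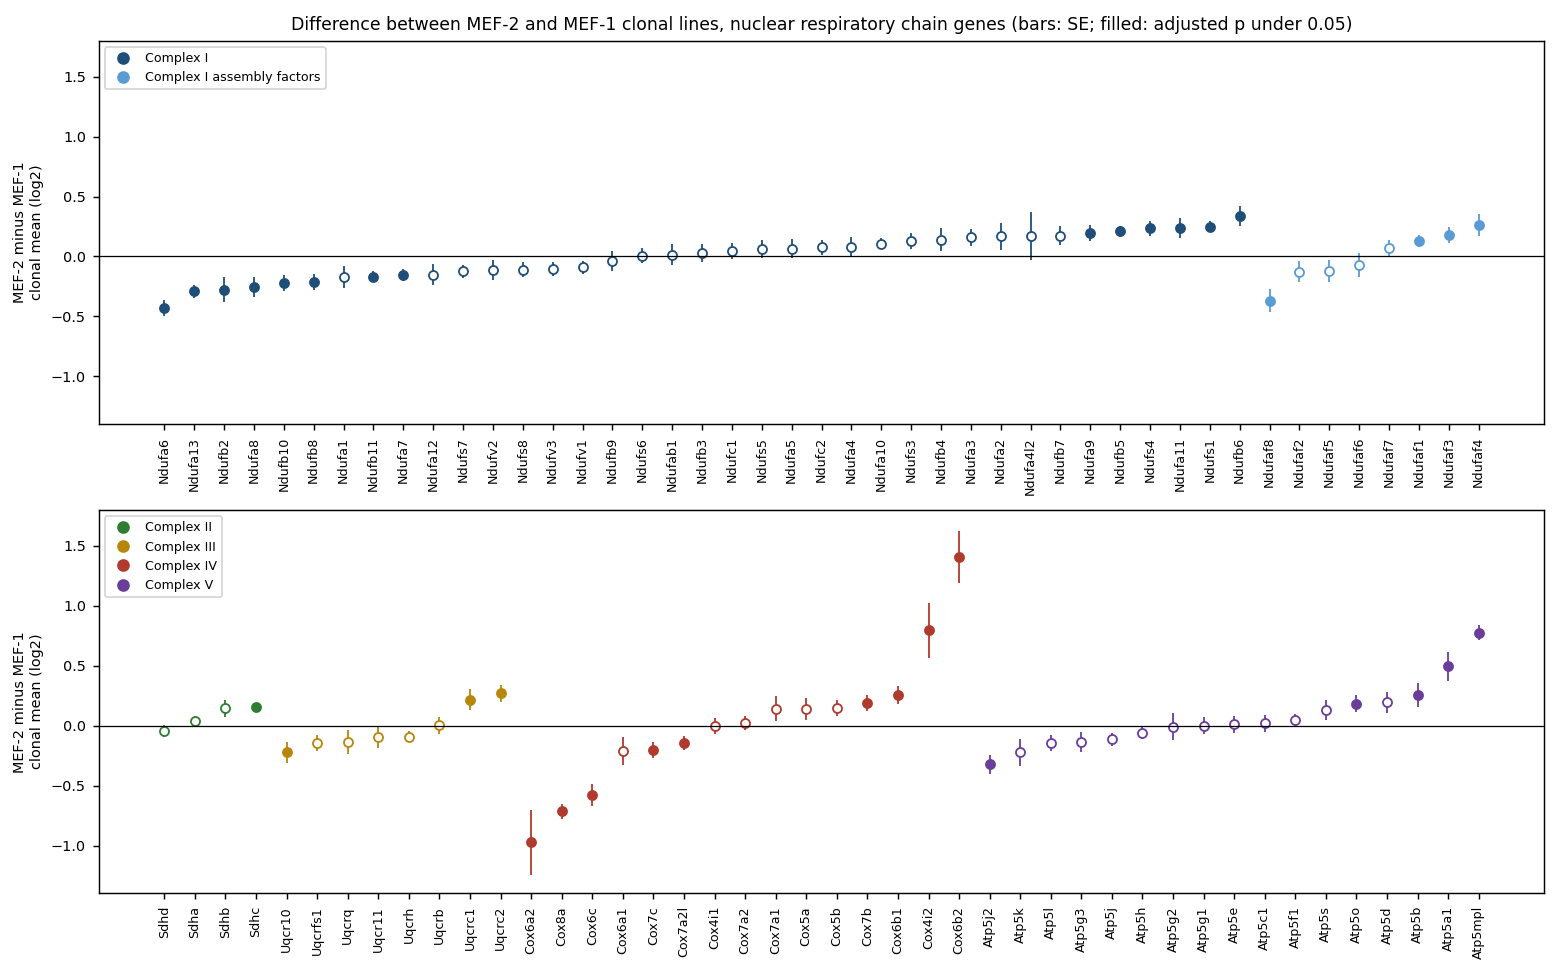
Members (89 of 90 drawn) along the x axis, complex I and its assembly factors in the upper panel and complexes II to V in the lower, with the difference between MEF-2 and MEF-1 clonal means on the y axis (log2 units); bars are the SE of the limma fit, and filled circles mark adjusted p under 0.05. Most members lie within 0.5 of 0, and those beyond it are the complex IV genes Cox6b2, Cox4i2, Cox6c, Cox8a and Cox6a2 and the complex V gene Atp5mpl.

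In complex I, which oxidises NADH, 6 of 38 subunits were higher and 8 lower in MEF-2, with a median difference of 0.04. The share called was 36.8%, beside 56.1% of all genes tested. Ndufs1, an iron-sulphur subunit of the peripheral arm, ran from 12.47 to 12.69 in the 7 MEF-1 clonal lines with a median of 12.62, and from 12.75 to 12.98 in MEF-2 with a median of 12.80. The groups did not overlap, and MEF-2 was higher by 0.25 (SE 0.05, adjusted p = 0.000469). Ndufb6, an accessory subunit of the membrane arm, was at 10.88 ± 0.15 in MEF-1 and 11.22 ± 0.18 in MEF-2 (SD, n = 7 each), with adjusted p = 0.0037, and its groups overlapped. Ndufa6, an accessory subunit at chr15:82350140-82354322, ran from 11.06 to 11.34 with a median of 11.17 in MEF-1 and from 10.57 to 10.90 with a median of 10.78 in MEF-2. As deposited, it had the largest difference of the complex in either direction, −0.43 (SE 0.07, adjusted p = 6.37e-05), without overlap. With the chromosome medians taken away, the difference was −0.37 for Ndufa6 and 0.38 for Ndufb6. Ndufa13, an accessory subunit also known for a role in cell death, was also lower in MEF-2 without overlap (difference −0.29, 12.06 ± 0.11 against 11.77 ± 0.09, SD, n = 7 each). Ndufb5, higher in MEF-2 (difference 0.21), and the X-linked Ndufb11, lower (−0.17), completed the subunits without overlap; Ndufb5 is named for that reason, after its values were seen.

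Among the 8 assembly factors that carry Ndufaf symbols, 3 were higher and 1 lower in MEF-2 (50% called, beside 56.1% of all genes tested). Ndufaf8 was at 8.74 ± 0.14 in MEF-1 and 8.38 ± 0.16 in MEF-2 (SD, n = 7 each; adjusted p = 0.00429). Ndufaf4 ran from 9.67 to 10.38 in MEF-1 and from 10.29 to 10.52 in MEF-2, and its difference of 0.26 had adjusted p = 0.0247, a call that was lost after quantile normalization (adjusted p = 0.0605) and with the parental lines counted in (adjusted p = 0.0895). The low end of MEF-1 was clonal line 2, with the other 6 lines at 10.17 or above. Ndufaf1 and Ndufaf3, named after their values were seen, were also higher (0.13 and 0.18), but the call was lost in 7 and 9 of the 14 fits that left out 1 line, with a replicate block (adjusted p = 0.102 and 0.104), after quantile normalization (0.204 and 0.0741) and with the parental lines counted in (0.124 and 0.0514). The replicate block, here and below, pairs clones of the sets by number, and the labels do not say that same-numbered clones belong together. Ndufa4 and Ndufab1 are counted here by symbol, although Ndufa4 is held to be a subunit of complex IV and Ndufab1 is the mitochondrial acyl carrier protein. Neither passed the test (differences 0.08 and 0.02). Ndufb4, at 9.71, is uncertain, since a processed pseudogene of the same family, Ndufb4c, was at 9.79 and reads may be shared between them.

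In complex II, succinate dehydrogenase, 1 of 4 members was higher in MEF-2 (25% called, beside 56.1% of all genes tested). Sdhc, a membrane anchor, ran from 12.57 to 12.68 with a median of 12.60 in MEF-1 and from 12.68 to 12.86 with a median of 12.75 in MEF-2, so that the lowest MEF-2 and highest MEF-1 lines met. This was the member that passed the test, with a difference of 0.15 (SE 0.04, adjusted p = 0.00283). The flavoprotein Sdha was at 13.88 ± 0.10 and 13.92 ± 0.06, the iron-sulphur subunit Sdhb at 12.12 ± 0.13 and 12.26 ± 0.13, and the second anchor Sdhd at 12.21 ± 0.11 and 12.16 ± 0.05 in MEF-1 and MEF-2 (SD, n = 7 each), with adjusted p from 0.09 to 0.546. Sdhb passed the test in the fits without MEF-1 clonal line 5 or without MEF-2 clonal line 3 (lowest adjusted p = 0.0452).

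In complex III, ubiquinol-cytochrome c reductase, 2 of 8 members were higher and 1 lower in MEF-2 (37.5% called, beside 56.1% of all genes tested). The higher were the core proteins Uqcrc2 and Uqcrc1. Uqcrc2 ran from 12.26 to 12.75 with a median of 12.34 in MEF-1 and from 12.62 to 12.82 with a median of 12.66 in MEF-2 (difference 0.27, SE 0.07, adjusted p = 0.005). In MEF-1, clonal line 5 alone was above the lowest MEF-2 line. With the median of its chromosome, 7, taken away, the difference of Uqcrc2 was 0.16 (adjusted p = 0.0205). For Uqcrc1 the difference was 0.22, with means of 12.96 ± 0.12 and 13.18 ± 0.21 (SD, n = 7 each), and for the small subunit Uqcr10 it was −0.22, with 11.55 ± 0.23 and 11.33 ± 0.08. Both calls were weak, with adjusted p = 0.0414 and adjusted p = 0.039, and were lost in 8 and 10 of 14 fits that left out 1 line, Uqcrc1 in those without MEF-1 clonal lines 1 to 4 or MEF-2 clonal lines 2, 4, 5 or 7, and Uqcr10 in all but those without MEF-1 clonal lines 3 or 6 or MEF-2 clonal lines 4 or 7. The Uqcrc1 call was also lost with a replicate block (adjusted p = 0.0586). Uqcr11, the member of the complex with the lowest mean, did not pass the test (11.50 ± 0.18 against 11.40 ± 0.15).

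Complex IV, cytochrome c oxidase, held 5 of the 6 members that differed by at least 0.5, with 4 members higher and 5 lower in MEF-2 of 15. With 60% called, the complex was near the 56.1% of all genes tested. A difference of at least 0.5 was found for 5 of its 15 members and for 4928 of 15285 genes tested. Cox6b2 (chr7:4751792-4753094), known as the testis form of subunit VIb, had the largest difference of all members. In the MEF-1 clonal lines it was at 6.11, 6.61, 6.17, 6.81, 7.09, 6.78 and 6.70, and in the MEF-2 clonal lines at 8.21, 8.36, 8.85, 7.62, 7.44, 7.76 and 7.90. Every MEF-2 clone was above every MEF-1 clone, by 1.41 on average (SE 0.22, adjusted p = 7.25e-05), and the parental lines were at 6.51 and 7.27. The common form Cox6b1, its neighbour in function, was higher in MEF-2 as well, by 0.26 (12.60 ± 0.17 against 12.86 ± 0.13, SD, n = 7 each, adjusted p = 0.0104). With the median of chromosome 7 taken away, the difference was 1.30 for Cox6b2 and 0.15 for Cox6b1 (adjusted p = 7.27e-05 and 0.045).

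Cox6a2 (chr7:128205435-128206387), the form of subunit VIa of heart and skeletal muscle, was lower in MEF-2. Its clonal values were 4.82, 5.69, 5.03, 5.38, 5.46, 4.52 and 4.22 in MEF-1 and 3.46, 3.81, 3.44, 4.18, 4.08, 4.32 and 5.01 in MEF-2. The groups overlapped, since MEF-2 clonal line 7 was above MEF-1 clonal lines 1, 6 and 7 and MEF-2 clonal line 6 above MEF-1 clonal line 7 (difference −0.97, SE 0.27, adjusted p = 0.00694). After quantile normalization of the lines the difference was −0.53 with adjusted p = 0.109, so the call was lost. The common form Cox6a1 did not pass the test, at 12.59 ± 0.26 in MEF-1 and 12.38 ± 0.23 in MEF-2 (SD, n = 7 each).

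Cox4i2 (chr2:152754173-152765037), a form of subunit IV known from lung and from cells at low oxygen, lay between 1.19 and 1.44 in all MEF-1 clonal lines. In MEF-2 clonal lines 1 to 7 it was at 2.43, 1.42, 1.25, 2.79, 2.12, 2.88 and 1.78. Clones 2 and 3 were thus within the range of MEF-1 and the other 5 above it (difference 0.80, SE 0.23, adjusted p = 0.00878), and at this low level rlog values are strongly pulled together. The common form Cox4i1 was near 14 in every line, at 13.94 ± 0.15 and 13.93 ± 0.09 (SD, n = 7 each), with a difference that rounds to 0. Cox7a1 of muscle, at 2.63 ± 0.15 and 2.77 ± 0.18, and Cox7a2 of other tissues, at 11.82 ± 0.12 and 11.84 ± 0.09, did not pass the test.

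**Figure D2:**
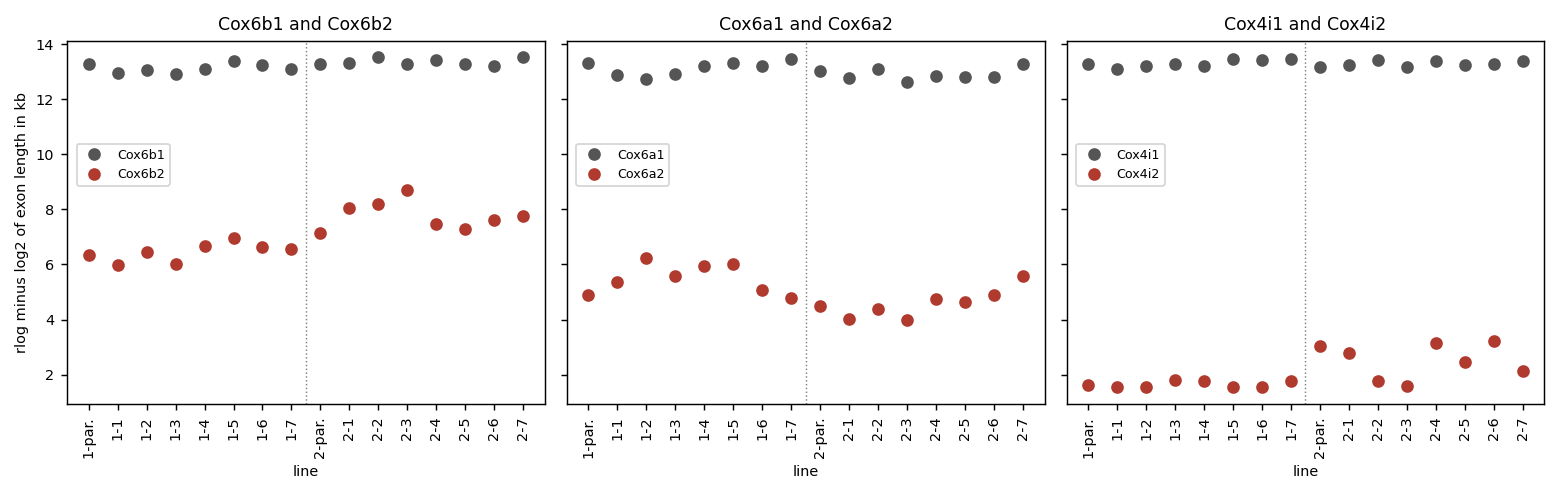
Level of the common form (grey) and the tissue form (red) of 3 subunits of complex IV in each line, as the rlog value minus the log2 of the merged exon length in kb; the dotted line separates MEF-1 from MEF-2, and par. is the parental line. The common forms lie near 13 in all lines, Cox6b2 is higher and Cox6a2 mostly lower in MEF-2, and Cox4i2 is above the MEF-1 lines in 5 MEF-2 clonal lines and the parental line.

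Per kb, the common form exceeded the tissue form in every line and pair. Cox6b1 was above Cox6b2 by 6.64 ± 0.21 in MEF-1 and by 5.48 ± 0.49 in MEF-2, Cox6a1 above Cox6a2 by 7.52 ± 0.70 and 8.29 ± 0.42, and Cox4i1 above Cox4i2 by 11.66 ± 0.19 and 10.86 ± 0.64 (SD, n = 7 each). The corresponding distances were 8.37 ± 0.16 and 8.25 ± 0.22 for Cox7a2 over Cox7a1, and 9.90 ± 0.54 and 9.81 ± 0.42 for Ndufa4 over Ndufa4l2. The smallest distance of a line, 4.57, was that of Cox6b1 over Cox6b2. The 3 genes that encode the same mature subunit c of ATP synthase were closer, with Atp5g3 above Atp5g1 by 1.59 ± 0.07 in MEF-1 and 1.46 ± 0.12 in MEF-2, and above Atp5g2 by 3.43 ± 0.16 and 3.30 ± 0.29. These 3 genes did not pass the test between the sets (adjusted p from 0.187 to 0.992). The merged exon length was 2181 bases for Atp5g3 and 4912 for Atp5g1, and their means over all lines without the length term were 12.72 and 12.37. Part of the distance between Atp5g3 and Atp5g1 is therefore the length term, whose uncertainty the SDs do not hold.

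2 further structural subunits of complex IV were lower in MEF-2 without overlap. Cox8a, the common form of subunit VIII (chr19:7215153-7217616), ran from 12.41 to 12.84 with a median of 12.66 in MEF-1 and from 11.78 to 12.10 with a median of 11.89 in MEF-2 (difference −0.71, SE 0.06, adjusted p = 3.09e-07). Cox6c (chr15:35925886-35938246) ran from 12.32 to 12.92 with a median of 12.56 and from 11.88 to 12.16 with a median of 11.95 (difference −0.58, SE 0.09, adjusted p = 7.62e-05). Cox6c is on chromosome 15, and its highest MEF-1 value, 12.92, was that of clonal line 5, in which chromosome 15 was raised; with the chromosome medians taken away the difference was −0.53. Smaller changes were those of Cox7c (−0.21), named after its values were seen, of the X-linked Cox7b (0.19, adjusted p = 0.0249) and of Cox7a2l (−0.14, adjusted p = 0.0449). Cox7a2l is known as a factor of supercomplexes of complexes III and IV, and its function in these lines was not tested. The call of Cox7a2l held only in the fits without MEF-1 clonal lines 1 or 5 or MEF-2 clonal line 3, and that of Cox7b was lost without MEF-1 clonal lines 1, 2 or 4 or MEF-2 clonal line 2 (highest adjusted p = 0.0944 and 0.0536). Both were lost with the parental lines counted in (adjusted p = 0.0795 and 0.0638).

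In complex V, ATP synthase, 4 of 17 members were higher and 1 lower in MEF-2 (29.4% called, beside 56.1% of all genes tested). Atp5mpl (chr12:111961375-111966977), a small membrane proteolipid, was at 10.42, 10.34, 10.29, 10.31, 10.58, 10.58 and 10.55 in the MEF-1 and 11.21, 11.25, 11.13, 11.31, 11.09, 11.23 and 11.27 in the MEF-2 clonal lines. The difference of 0.78 (SE 0.06, adjusted p = 9.97e-08) had the smallest p-value of all members. The alpha subunit Atp5a1 (chr18:77773729-77782869) was at 14.99 ± 0.34 in MEF-1 and 15.48 ± 0.09 in MEF-2 (SD, n = 7 each; difference 0.49, adjusted p = 0.00336), again without overlap. The beta subunit Atp5b, the member with the highest mean at 15.57, and Atp5o of the peripheral stalk were higher by 0.25 and 0.18 with adjusted p = 0.0447 and 0.0411, calls that were each lost in 9 of the 14 fits that left out 1 line. For both, the call was lost without MEF-1 clonal lines 1 to 4 or MEF-2 clonal lines 2, 4, 5 or 7, for Atp5b also without MEF-1 clonal line 7 and for Atp5o without line 6 (highest adjusted p = 0.0923 and 0.0885). The Atp5b call was also lost with a replicate block (adjusted p = 0.08), after quantile normalization (adjusted p = 0.0644) and with the parental lines counted in (adjusted p = 0.0739), and the Atp5o call with the parental lines (adjusted p = 0.118). Relative to their chromosomes neither passed the test (adjusted p = 0.0721 for both). Atp5j2, subunit f, was lower (difference −0.32, 12.41 ± 0.18 against 12.08 ± 0.12, adjusted p = 0.00326). Relative to chromosome 5, the difference of Atp5j2 was −0.26.

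**Figure D3:**
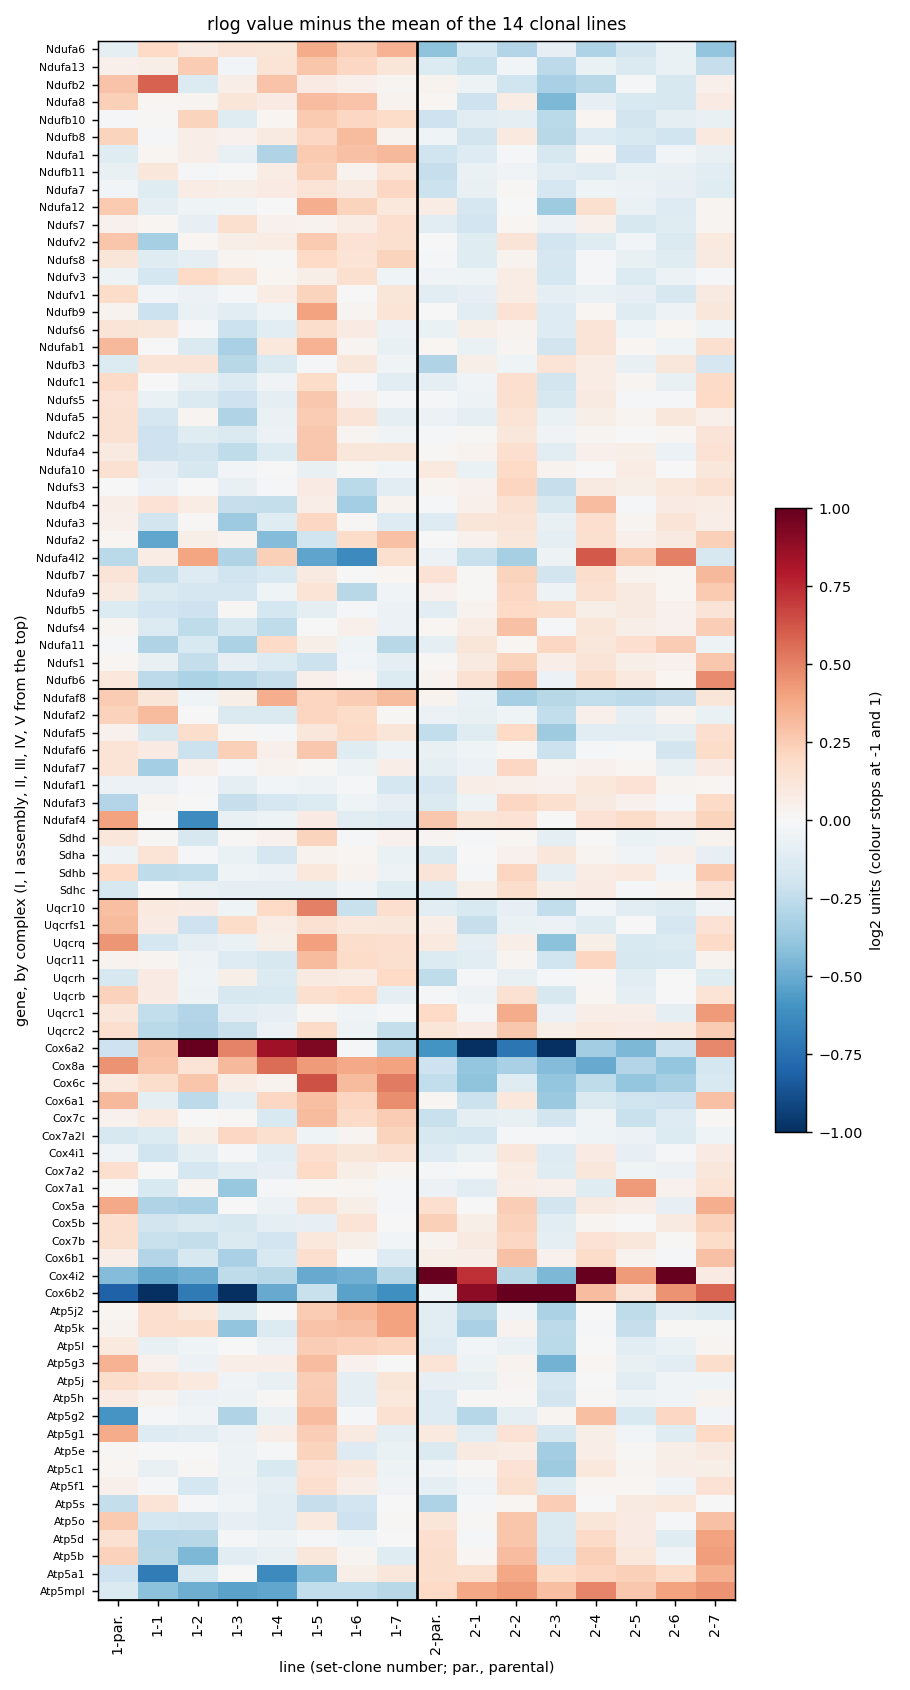
Deviation of each member (rows, 89 of 90 drawn, by complex from top to bottom) from its mean over the 14 clonal lines, in every line (columns, MEF-1 left and MEF-2 right of the thick line); the colour scale is in log2 units and stops at −1 and 1. The strongest colours are those of Cox6b2, Cox6a2 and Cox4i2, and MEF-1 clonal line 5 is red and MEF-2 clonal line 3 blue across most members.

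Members on the chromosomes that the study found at altered read coverage, and on X, were read against the median of their chromosome. MEF-2 minus MEF-1, that median was 0.64 for chromosome 12, 0.30 for chromosome 18 and −0.37 for chromosome 19, and 0.09 for X. These 4 chromosomes carry 11 members, 6 of them called (54.5%, beside 56.1% of all genes tested). With the chromosome median taken away, the difference of Atp5mpl on chromosome 12 was 0.14 and no longer passed the test (adjusted p = 0.0579), whereas Atp5s on the same chromosome, coupling factor B, had a difference of 0.13 as deposited and of −0.51 relative to its chromosome (adjusted p = 8.13e-05). On chromosome 19, Cox8a remained lower relative to its chromosome (−0.35, adjusted p = 0.00018), while Ndufb8 went from −0.21 (adjusted p = 0.0171) to 0.16 (adjusted p = 0.0386). Ndufs8 and Ndufv1, core subunits of complex I, were at −0.11 and −0.09 as deposited and at 0.26 and 0.28 relative to chromosome 19, where both passed the test. For the X-linked Ndufa1 the difference was −0.17 as deposited and −0.26 relative to X, and for Cox7b 0.19 and 0.09, so that Ndufa1 passed the test and Cox7b did not.

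**Figure D4:**
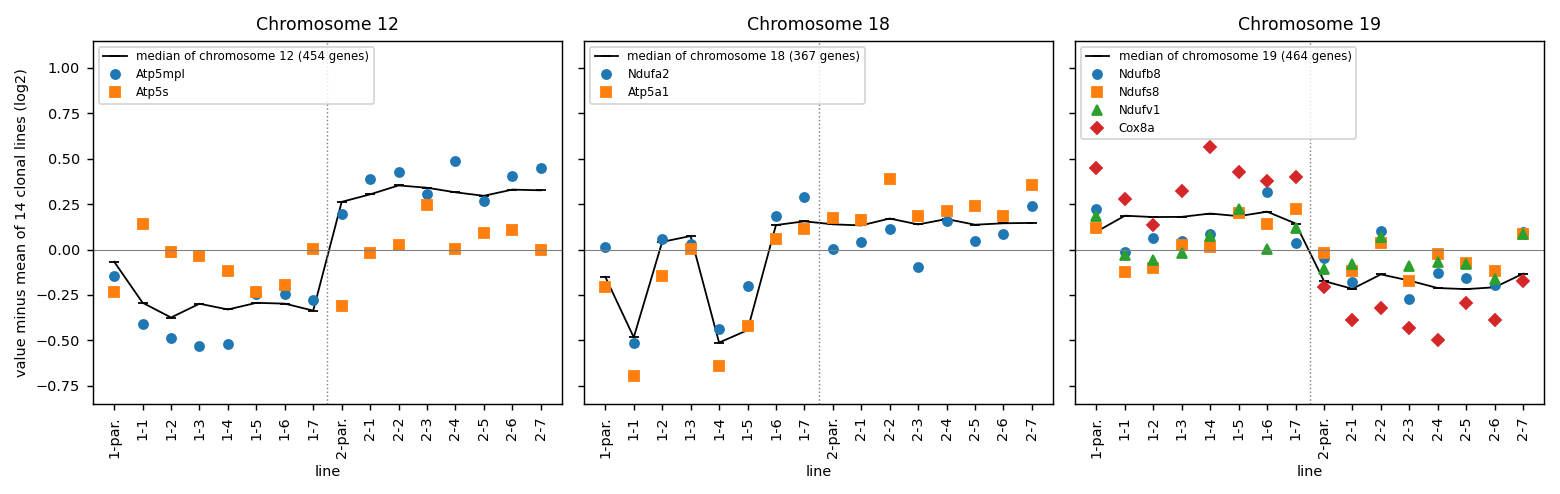
Deviation from the mean of the 14 clonal lines (y axis, log2 units) of the members on chromosomes 12, 18 and 19 in each line (symbols), with the median over the genes of the chromosome (black line). Atp5mpl follows chromosome 12 and Atp5s does not, Atp5a1 and Ndufa2 are low where chromosome 18 is low in MEF-1, and Cox8a lies above its chromosome in most MEF-1 lines and below it in MEF-2.

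Chromosome 18 also varied within MEF-1, with medians of −0.48, −0.51 and −0.44 in clonal lines 1, 4 and 5 and from 0.04 to 0.16 in the other 4, against 0.13 to 0.17 in all MEF-2 clonal lines. Atp5a1 was at 14.54, 14.60 and 14.81 in MEF-1 clonal lines 1, 4 and 5, and at 15.09, 15.24, 15.29 and 15.35 in lines 2, 3, 6 and 7. Ndufa2, an accessory subunit of complex I at chr18:36742332-36744557, was at 11.24, 11.32 and 11.56 in the same 3 lines and at 11.79 to 12.05 in the other 4. The 3 lines with a low chromosome 18 were thus the lowest of the set for both genes. The MEF-1 parental line lay between, with chromosome 18 at −0.15, Atp5a1 at 15.03 and Ndufa2 at 11.78. Relative to chromosome 18, the difference between the sets was 0.20 for Atp5a1 (adjusted p = 0.003) and −0.13 for Ndufa2 (adjusted p = 0.055).

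The spread among the clones of a set was compared by medians. The median SD among 7 clonal lines was 0.14 in MEF-1 and 0.11 in MEF-2 for the members, against 0.20 and 0.16 over all genes tested, which include weakly expressed ones, and 0.14 and 0.10 over the 156 other nuclear genes of oxidative metabolism counted below. The largest SDs were those of Cox6a2 (0.53), Ndufa4l2 (0.40) and Cox6b2 (0.35) in MEF-1, and of Cox4i2 (0.64), Cox6a2 (0.55) and Cox6b2 (0.48) in MEF-2, all of them isoform genes with low or moderate levels. Sdhc, with an SD of 0.04 in MEF-1, and Ndufb11, with 0.03 in MEF-2, were among the steadiest. The SD was larger in MEF-1 for 60 of 90 members (66.7%), near the 63.4% of all genes tested.

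Within a set, the complexes tended to move together from clone to clone. MEF-1 clonal line 5 had the highest median deviation of the 7 clonal lines of its set in each complex, 0.18 in complex I, 0.07 in II, 0.18 in III, 0.17 in IV and 0.23 in V. It was the highest of the 7 clonal lines for 50 members (55.6%), where it was so for 18.8% of all genes tested. In MEF-2, clonal line 3 was lowest for complexes I (−0.12), IV (−0.13) and V (−0.17), but not for II, where clonal line 5 was, or III, where clonal line 6 was. It was the lowest of the 7 for 56 members (62.2%), where it was so for 23.0% of all genes. Both lines were singled out after the values were seen, and both also stood apart in whole chromosomes; with the chromosome medians taken away, the medians over all members were 0.13 and −0.14 respectively, against 0.17 and −0.13 as deposited. Both lines were also the highest and the lowest of the clonal lines of their sets in lists outside the rule. MEF-1 clonal line 5 and MEF-2 clonal line 3 had medians of 0.14 and −0.05 for the mitochondrial ribosome. These were 0.10 and −0.17 for the outer membrane and import, and 0.05 and −0.11 for cytosolic ribosomal protein symbols. MEF-2 clonal line 3 was not the lowest for the regulators, the citric acid cycle or the assembly lists. The part of library depth and of RNA quality in these deviations was not tested, and no depth is known for the lines. The 13 mitochondrially encoded subunits did not follow the same order: the median deviation in the lines just named was 0.05 and −0.05 respectively, with the highest median at 0.44 (MEF-1 clonal line 2) and the lowest at −0.25 (clonal line 1 of MEF-2).

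**Figure D5:**
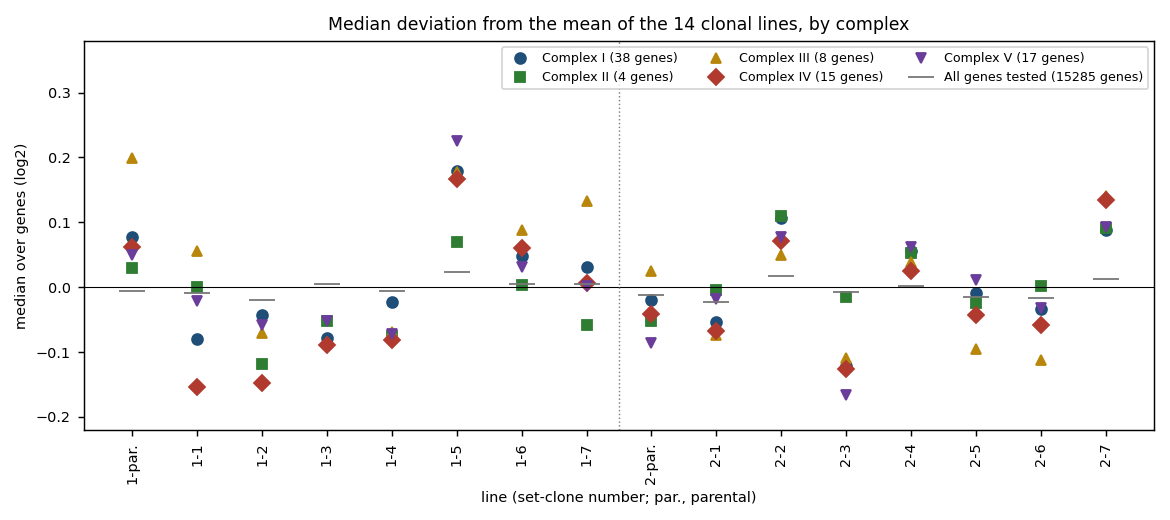
Median over the subunits of each complex, and over all 15285 genes tested, of the deviation from the mean of the 14 clonal lines (y axis, log2 units), for each line on the x axis. Among the MEF-1 clonal lines, each of the 5 complexes is highest in clonal line 5, and for complex III the MEF-1 parental line is higher still. In MEF-2 clonal line 3, 4 of the complexes lie between −0.11 and −0.17, while all genes stay between −0.02 and 0.02.

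Each parental line was set against the range of its 7 clones, to see where a population of many cells departs from lines grown from 1 cell. The MEF-1 parental line was above all of its clones for 22 members (24.4%, against 20.2% of all genes) and below them for 8 (8.89%, against 20.8%). The MEF-2 parental line was above its clones for 2 members (2.22%, against 15.8%) and below them for 18, where it was so for 18.5% of all genes. These counts lean on the lines named above. Without MEF-1 clonal line 5 the MEF-1 parental line was above the other clones for 39 members, where it was so for 23.4% of all genes. Without MEF-2 clonal line 3 the MEF-2 parental line was below the others for 32, where it was so for 20.7% of all genes. Leaving out a clone can only keep or raise such counts. These clones were picked as the highest or lowest for most members, so the rises follow in part from that choice. Ndufaf4, at 10.70 and 10.57 in the parental lines, and Cox5b, a structural subunit of complex IV at 11.49 and 11.56, were above all clones of both sets, and Ndufa6, Ndufb11, Ndufaf3, Sdhc, Uqcrh and Atp5s were below all clones of both; over all genes these shares were 4.85% and 6.73%. Cox5b, Ndufaf3 and Uqcrh are named after their values were seen. A parental line has 1 library, so these places carry no test.

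The sequence around the members' starts was read for motifs of known regulators of these genes. RefSeq promoter windows on GRCm38.p6, from 250 bases before to 50 after a start, were found by symbol for 72 of 90 members, in 77 windows, 5 of the members having 2. Matches were sought on both strands for nuclear respiratory factor 1, NRF1 (GCGCA and GCGC with 1 base of any kind between), and for CCGGAAG (ETS factors such as GABP), AAGATGGCG (YY1) and GGGGCGGGG (SP factors), and no match overlapped one of another motif. The NRF1 letters were in 20 windows (26.0%), against 8.62% of 14939 windows of genes tested here and 4.6% of all 32851 windows. The ETS letters were in 18 (23.4%, against 15.3% and 8.86%), those of YY1 in 8 (10.4%, against 2.54% and 1.4%) and those of SP in 11 (14.3%, against 20.1% and 11.4%). A match of letters is a description of the window and shows no binding, and no test was made. Among windows of members higher in MEF-2, lower in MEF-2 and not called, 4 of 14, 2 of 15 and 14 of 48 held the NRF1 letters. Among those not in the table were Atp5a1, Atp5f1, Atp5mpl, Atp5s, Cox4i1, Cox4i2, Cox6a2, Cox6c, Ndufa2, Ndufa4l2, Ndufaf6, Ndufb9, Ndufs1, Sdhc, Uqcrb, Uqcrc2 and Uqcrq.

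6 windows are shown, each 5′ to 3′ on the strand of its gene, with matches in capitals. They were picked by symbol without a rule, and Ndufs6 is not taken in by the rule for named genes. Each of the 6 holds a match to some motif, whereas 50.6% of all member windows held the letters of NRF1, ETS or YY1. Sdha and Uqcrc1 hold the NRF1 letters more than once, Ndufs6 those of NRF1 and YY1, and Cox8a the ETS letters on the other strand at 2 places. Cox6b1 and Cox6b2 are the common and the testis form described above, the former with the ETS letters on the other strand and the latter with the SP letters alone.
Sdha, chr13:74350191-74350490, minus strand: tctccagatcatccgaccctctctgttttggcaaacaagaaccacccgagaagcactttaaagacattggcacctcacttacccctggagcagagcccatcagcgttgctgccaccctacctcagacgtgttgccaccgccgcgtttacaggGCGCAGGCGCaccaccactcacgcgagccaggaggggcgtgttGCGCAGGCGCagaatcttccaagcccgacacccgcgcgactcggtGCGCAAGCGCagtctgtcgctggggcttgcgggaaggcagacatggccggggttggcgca
Uqcrc1, chr9:108936398-108936697, plus strand: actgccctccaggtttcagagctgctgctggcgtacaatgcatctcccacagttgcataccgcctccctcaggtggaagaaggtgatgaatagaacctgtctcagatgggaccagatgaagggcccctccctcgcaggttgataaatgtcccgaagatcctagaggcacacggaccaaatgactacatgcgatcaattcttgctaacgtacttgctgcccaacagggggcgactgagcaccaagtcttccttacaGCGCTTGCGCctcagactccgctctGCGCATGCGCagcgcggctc
Ndufs6, chr13:73328433-73328732, minus strand: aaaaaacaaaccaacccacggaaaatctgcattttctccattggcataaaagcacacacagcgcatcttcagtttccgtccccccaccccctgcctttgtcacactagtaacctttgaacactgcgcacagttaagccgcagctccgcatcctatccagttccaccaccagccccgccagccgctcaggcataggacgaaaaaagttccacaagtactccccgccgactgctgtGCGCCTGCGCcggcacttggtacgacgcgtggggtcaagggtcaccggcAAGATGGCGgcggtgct
Cox8a, chr19:7217567-7217866, minus strand: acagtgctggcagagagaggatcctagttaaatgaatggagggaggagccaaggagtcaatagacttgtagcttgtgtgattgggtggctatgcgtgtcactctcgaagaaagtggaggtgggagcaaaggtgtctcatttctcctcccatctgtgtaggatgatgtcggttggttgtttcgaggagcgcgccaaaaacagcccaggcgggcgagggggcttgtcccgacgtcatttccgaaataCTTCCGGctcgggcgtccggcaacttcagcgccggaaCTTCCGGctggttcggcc
Cox6b1, chr7:30626065-30626364, minus strand: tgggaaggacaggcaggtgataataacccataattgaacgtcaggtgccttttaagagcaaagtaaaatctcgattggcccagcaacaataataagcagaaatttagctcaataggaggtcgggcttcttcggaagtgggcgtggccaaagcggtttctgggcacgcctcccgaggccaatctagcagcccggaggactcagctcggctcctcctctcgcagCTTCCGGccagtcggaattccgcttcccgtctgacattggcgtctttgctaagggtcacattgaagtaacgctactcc
Cox6b2, chr7:4753045-4753344, minus strand: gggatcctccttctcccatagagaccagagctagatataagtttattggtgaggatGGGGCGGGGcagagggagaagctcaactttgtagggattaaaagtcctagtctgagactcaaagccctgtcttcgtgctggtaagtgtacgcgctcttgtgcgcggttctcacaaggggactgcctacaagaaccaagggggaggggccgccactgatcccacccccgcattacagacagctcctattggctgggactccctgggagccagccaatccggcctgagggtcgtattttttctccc

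Other genes of oxidative metabolism were counted in the same fit, from lists set by symbol. Of 156 nuclear genes on them, 58 were higher and 26 lower in MEF-2, which is 53.8% called beside 56.1% of all genes, with a median difference of 0.09. The largest difference was that of Ppargc1a, the coactivator of mitochondrial biogenesis. It was at 10.66, 8.52, 8.41, 9.41, 8.81, 8.75 and 9.09 in the MEF-1 clonal lines and at 5.08, 4.41, 4.72, 4.46, 4.59, 5.33 and 4.26 in the MEF-2 clonal lines, and at 7.26 and 5.29 in the parental lines. Each MEF-1 clone was above its parental line and above all MEF-2 lines, and the difference of −4.40 (SE 0.30, adjusted p = 2.09e-08) stands beside the median of 0.02 over the respiratory chain genes in the same lines. Whether Ppargc1a and the members are related in these lines was not tested. Of 12 regulators, 6 were higher and 3 lower in MEF-2 (75% called, beside 56.1% of all genes tested). Nrf1 was lower (−0.24), Gabpb1 and Yy1 were higher (0.37 and 0.23), and Gabpa (−0.02) and Tfam (−0.05), the mitochondrial transcription factor, did not pass the test. Relative to its chromosome, 12, Yy1 was at −0.41. Esrra, an orphan nuclear receptor on chromosome 19, was lower (−0.18 as deposited, 0.18 relative to the chromosome). Tfb1m, a methyltransferase of mitochondrial ribosomal RNA, was higher by 0.63, and Ppargc1b, on chromosome 18, by 0.53 as deposited and by 0.24 relative to the chromosome, where it did not pass the test.

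The 13 mitochondrially encoded subunits had 1 gene higher and 4 lower in MEF-2, with a median difference of −0.10. The share called was 38.5%, beside 56.1% of all genes tested. Those lower were mt-Atp6 (−0.41), mt-Atp8 (−0.39), mt-Nd4l (−0.37) and mt-Cytb (−0.36), and mt-Nd1 was higher (0.28), a call that was lost with a replicate block (adjusted p = 0.0642). Their median SD was 0.24 in MEF-1 and 0.21 in MEF-2, larger than that of the nuclear members. Cycs, cytochrome c, was higher by 0.32 (adjusted p = 0.0118), and Cyc1, the cytochrome subunit of complex III whose symbol lies outside the rule, did not pass the test (0.15). Of 2 members of ATP synthase known by other symbols, Atpif1, its inhibitor, was higher (0.28) and Usmg5, on chromosome 19, lower (−0.37 as deposited and −0.00 relative to the chromosome).

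Assembly factors outside the Nduf symbols were counted by complex. The share called was 71.4% for complex I, 75% for II, 50% for III, 60% for IV and 0% for V, beside 56.1% of all genes tested. Of the 7 for complex I, 5 were higher in MEF-2, led by Nubpl, which inserts iron-sulphur clusters (7.71 ± 0.16 against 9.07 ± 0.13, SD, n = 7 each, difference 1.36, and 0.72 relative to chromosome 12). Timmdc1 and Ecsit followed, with 0.44 and 0.36. For complex IV, 8 of 20 were higher and 4 lower. Surf1, needed early in assembly, was lower without overlap (difference −0.73, 11.14 ± 0.06 against 10.41 ± 0.05, SD, n = 7 each), as was Cox14 (−0.72), while Cox16 was higher by 0.65 as deposited and by 0.01 relative to chromosome 12. For complex II, 2 of 4 were higher (Sdhaf4 by 0.51 and Sdhaf3 by 0.47) and 1 was lower (Sdhaf2, −0.15, and 0.21 relative to chromosome 19). For complex III, 1 of 6 was higher (Uqcc2, 0.21) and 2 were lower (Uqcc3, −0.46, and Uqcc1, −0.18). Relative to their chromosomes, Uqcc2 was at 0.15 (adjusted p = 0.0647) and Uqcc3, on chromosome 19, at −0.09 (adjusted p = 0.427), so that both calls were lost, and the 3 for complex V did not pass the test, with differences from −0.10 to 0.15 (adjusted p from 0.137 to 0.807).

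In the citric acid cycle, which supplies NADH and succinate, 7 of 13 genes were higher and 1 lower in MEF-2. The share called was 61.5%, beside 56.1% of all genes tested. Dlst, of the oxoglutarate dehydrogenase complex, was higher by 0.68 as deposited and by 0.04 relative to chromosome 12. Suclg2, of succinyl-CoA ligase, was higher by 0.50, and Cs, citrate synthase, by 0.46 (13.81 ± 0.14 against 14.27 ± 0.18, SD, n = 7 each). Of 11 genes of the outer membrane and import, 4 were higher and 1 lower, with the porins Vdac3 (0.40) and Vdac2 (0.30) and the import channel Tomm40 (0.29) ahead. The Vdac2 call was lost with a replicate block (adjusted p = 0.0617), and Tomm40 was at 0.18 relative to its chromosome and did not pass the test there (adjusted p = 0.13). Of 78 proteins of the mitochondrial ribosome, 24 were higher and 14 lower, and the largest differences were those of Mrps6 (−0.87), Mrps28 (−0.58) and Mrps26 (−0.48). The 83 cytosolic ribosomal protein symbols had 32 genes higher and 3 lower, with a median difference of 0.12. The share called was 45.5% for the outer membrane and import, 48.7% for the mitochondrial ribosome and 42.2% for the cytosolic symbols. Over all genes tested it was 56.1%.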

How the data were processed

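Total RNA was measured in 16 lines, each with 1 library, sequenced as 150 bp paired-end reads. Per the labels and the study's methods, the authors trimmed reads with Trim Galore 0.6.0, quantified transcripts with Salmon 1.5.2 against mm10 (Ensembl release 102) and deposited log2 values from the rlog transformation of DESeq2 1.24.0. How transcripts were summed into genes is not given in the sources used here. The deposited table pairs Ensembl gene identifiers with lines; 54200 of 54453 were found in GENCODE mouse release 21, which gave symbols, types, coordinates (mm10, 1-based) and merged exon lengths. The strand setting of the quantification is not given in the sources used here.

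The 7 MEF-1 and 7 MEF-2 clonal lines, grouped by the labels, were compared with limma 3.58.1 (R 4.3.3, trended variance prior) over the 15285 protein-coding genes with a mean above 0, and called at a Benjamini-Hochberg adjusted p under 0.05. Counts over lists carry no test. Tables and the permutation test were made in Python 3.11.15, and the limma fit was tried on simulated data in R. Named genes are isoform genes, Sdha to Sdhd, the up to 3 called members with the largest difference per complex and direction, the highest and lowest means per complex, the 3 largest SDs per set, members on chromosomes 12, 18, 19 and X, those next to the threshold, and up to 3 called genes per outside list; others are said to be named later. The members and lists were chosen with earlier results of these data known. Alternatives were another filter, scaling, variance prior and test, chromosome medians, a replicate block and leaving out lines. 1 member enters all counts but is not reported here by name or drawn.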

Additional observations from a re-analysis of the deposited data

Results flagged for a closer look

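Each named member was examined among the 7 clonal lines of each set, in 88 sets of values, for a highest or lowest line far from the others (Dixon's test for 7 values), which chance alone flags in about 1 of 20 sets, or 4.4 here. 2 were found. Atp5g3, 1 of the genes of subunit c, was highest in MEF-1 clonal line 5 with 13.005, while the next line had 12.758 and the other 6 had a median of 12.737. Ndufaf4 was lowest in MEF-1 clonal line 2 with 9.67, while the next line had 10.17 and the other 6 had a median of 10.24.

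In 2 of the named members, the MEF-1 clonal lines all lay below their parental line and the MEF-2 clonal lines all above theirs. Over all genes tested, the MEF-1 parental line was above its clones for 20.2% and the MEF-2 parental line below its clones for 18.5%. The share of genes with both was not counted, so the 2 members cannot be called many or few. For Atp5mpl the clonal mean minus the parental value was −0.24 for MEF-1 and 0.19 for MEF-2, and the median deviation of chromosome 12 in the parental lines was −0.07 and 0.26. For Ndufs1 the corresponding values were −0.14 and 0.11. Ndufaf7, which the rule for named genes does not take in, lay the same way, with the parental line at 10.71 and MEF-1 clones up to 10.63, and the parental line at 10.48 and MEF-2 clones from 10.49. No test of these contrasts was made, as each parental line has 1 library.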

How the results depend on the processing

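The count of members called, 20 higher and 16 lower, stayed between 14 and 24 higher and between 13 and 23 lower under all 10 alternatives to the fit, and between 14 and 25 and between 13 and 17 when 1 clonal line was left out. Not all alternatives hold the 90 members. The filter at the 40th percentile holds 87, and the fit without chromosomes 12, 18, 19, X and Y holds 79. With a replicate block by clone number, 16 were higher and 16 lower, and the block took the calls of Uqcrc1, Atp5b, Ndufaf1 and Ndufaf3. Same-numbered clones correlated from −0.13 to 0.2 in their deviations, above 0.1 for 2 of 7 numbers, and 1 of 7 correlated best with its own number. Whether same-numbered clones shared a step of handling is not given by the labels. Parental lines counted in gave 14 and 18, quantile normalization 17 and 20, which turned the split, and centring on the autosomal median 24 and 16.

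By complex, counts are small, and these moved by over 1.5 times. With chromosome medians taken away, complex II had 2 higher, complex III 2 lower and complex V 1 higher and 3 lower. After quantile normalization, complex III had 3 lower and complex V 2 lower. With 1 line left out, the higher counts ran from 1 to 2 in complex II, 1 to 2 in III and 2 to 5 in V, and the lower from 0 to 2 in III and 1 to 2 in V. With chromosome medians taken away, the median difference of the citric acid cycle went from 0.136 to 0.043, Ndufb8 reversed (0.16), Atp5b, Atp5mpl, Atp5o and Cox7b lost and Sdhb, Atp5s, Ndufs8, Ndufv1 and Ndufa1 gained a call. Over all alternatives to the fit, the differences of named members kept direction and call in 394 cases, lost the call in 24, gained it in 7 and reversed in 1; with 1 line left out these numbers were 561, 51, 4 and no reversal. Centred, the MEF-2 parental line was above its clones for 4 members. Without MEF-1 clonal line 5, the MEF-1 parental line was above its clones for 39 members and below for 8, and without MEF-2 clonal line 3 the MEF-2 parental line was below for 32 and above for 2 (added after seeing the data). Leaving out a clone can only keep or raise such counts. The cause of these changes was not tested. The exact permutation test per gene, over 3432 splits, cannot give a p below 0.000583. No depth is known for any line, so the precision it gives cannot be stated.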

Other observations

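Gene models that fit the symbols but not the type were left out of all counts. Of 12 processed pseudogenes with such symbols, 1 had a mean above 0, Ndufb4c. Ndufb1-ps, which the annotation lists as a non-coding RNA at a shared promoter, had a mean of 9.98, with 9.77 ± 0.17 in MEF-1 and 10.15 ± 0.10 in MEF-2 clonal lines (SD, n = 7 each), and lies on chromosome 12.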
